A study of Rattus norvegicus with 4 samples.

Results

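The genes described here are 10 rat genes of the amino acid stress response, serine synthesis, transsulfuration and the related amidation steps, namely Cth, Cbs, Ass1, Asns, Atf4, Ddit3, Trib3, Psat1, Phgdh and Sesn2. They were chosen by name, through RefSeq accessions of the probes, from 16563 genes with a symbol on the array, and the choice was made with earlier values of the same comparison known. Their differences are therefore given as descriptions, not as tests of the genes. All 10 had at least 1 probe, 12 probes in all. Expression was measured 48 h after transfection, with 1 single-colour Agilent array per sample. In 2 samples the transfected RNA was a synthetic microRNA mimic (miR-125a-3p), and in 2 it was a negative control RNA (miR-neg), each at 50 nM. Both groups were oligodendrocyte precursor cells (OPCs), the proliferating cells that give rise to myelinating oligodendrocytes, taken from rat cortex at postnatal day 2, kept with bFGF and PDGF for 3 days and transfected with Lipofectamine RNAiMax. The labels give no separate animals or cultures for the samples, so spreads are between these samples only. They also list the cells simply as oligodendrocytes. All 8 OPC markers, among them Pdgfra, Olig2 and Sox10, were well above background on all 4 arrays. At an adjusted p of 0.05 in limma, 0 of the 8 were called, against 0.683% of all features. This count does not show that the markers were unchanged. Their log2 differences (miR-125a-3p minus miR-neg) ran from -0.37 to 0.39, and 3 had an unadjusted p under 0.05, against 19.6% of all features.

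When amino acids run short, or proteins misfold in the endoplasmic reticulum, kinases phosphorylate the initiation factor eIF2, general translation falls and translation of ATF4 rises. ATF4 is a transcription factor that, in mouse and human cells, raises the genes of asparagine and serine synthesis, of transsulfuration and of amino acid import, together with the regulators Ddit3, Trib3 and Sesn2. Serine feeds glycine and one-carbon units, and with homocysteine it gives cysteine, and thereby glutathione, through cystathionine.

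The agent common to the miR-125a-3p samples is a mimic of the strand below, shown because its seed (bases 2 to 8, in capitals) is the part by which a microRNA pairs with its targets. The sequence is the RefSeq mature rat microRNA on GRCr8, chr1:67350727-67350748, plus strand, and the other arm of the same hairpin is given beneath it for comparison. The order of bases in the transfected product itself is not given in the sources used here.
rno-miR-125a-3p: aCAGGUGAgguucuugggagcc
rno-miR-125a-5p: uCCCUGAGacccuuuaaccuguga

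On these arrays, 2 of the 10 genes were higher after the mimic, Ass1 and Cth, and both signals lay next to the detection limit. The other 7 genes tested, Atf4, Asns, Ddit3, Trib3, Sesn2, Psat1 and Phgdh, lay between -0.30 and 0.13 on the log2 scale (miR-125a-3p minus miR-neg), and Cbs was too dim to test. In limma, 2 of the 9 genes tested passed an adjusted p of 0.05 over all 23142 features, and both were higher. Over all features, 0.683% passed, 0.376% as higher and 0.307% as lower. Ass1 and Cth entered the test only through the miR-125a-3p arrays, which favours a higher value. Of the 404 features detected on both of those arrays and on neither miR-neg array, 6.44% were called. The calls on Ass1 and Cth were also among the values known when the genes were chosen. Neither call was kept when any 1 of the 4 arrays was left out, where 0 features passed in limma and 2768 to 4118 had an unadjusted p under 0.05. Both calls were also lost with the position along the slide axis that both groups shared as a block (0 features in limma, 3950 at an unadjusted p under 0.05) and without the filter on dim probes (0 and 3963). The arrays of the 2 groups did not overlap in 6 of the 9 genes, while they did not overlap in 52.9% of all features.

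**Figure D1:**
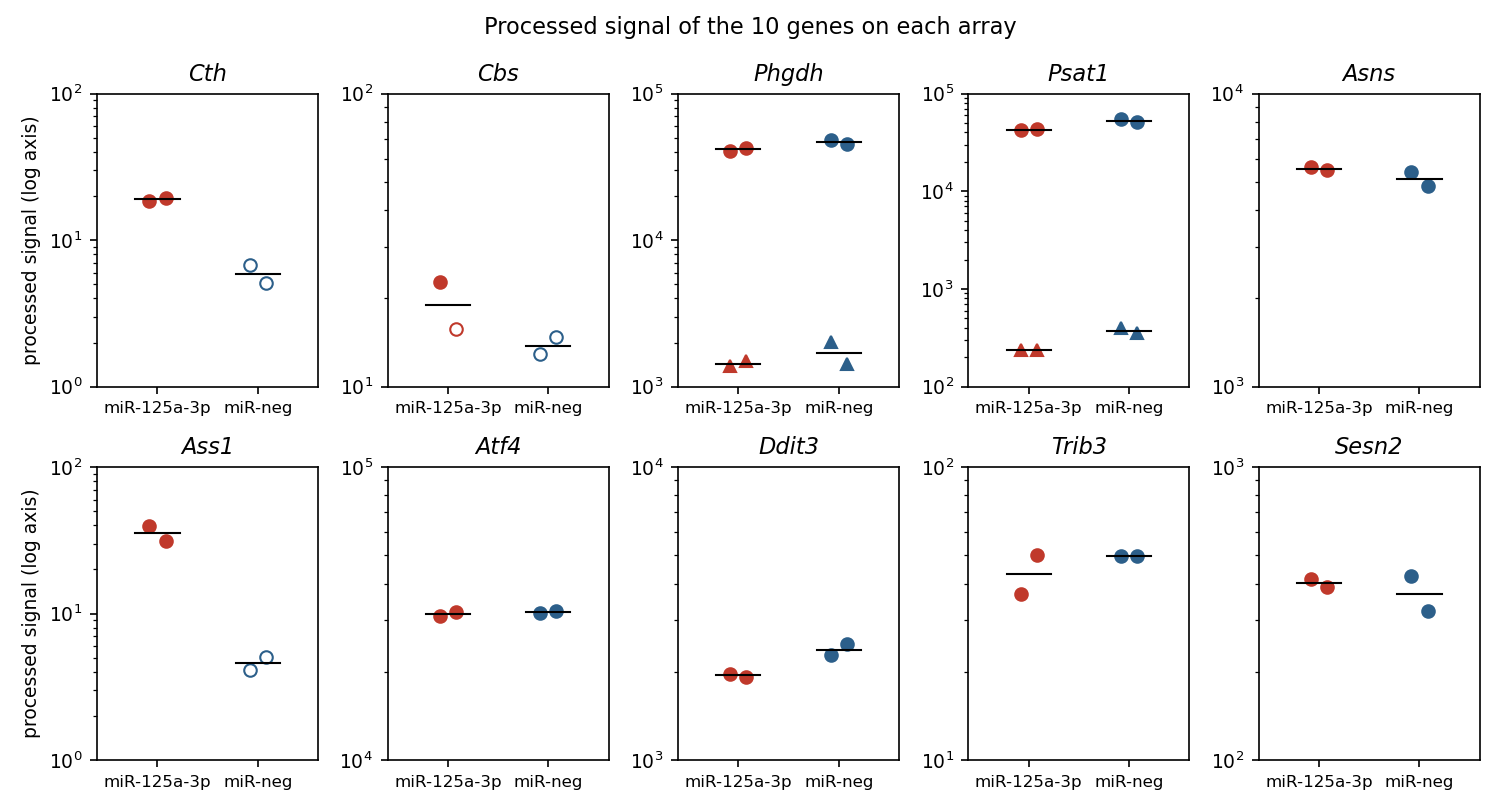
Processed signal (log axis) of the 10 genes on each of the 4 arrays, miR-125a-3p left and miR-neg right in each panel, with the geometric mean of 2 arrays as a line. Circles are the brighter probe and triangles a second probe, and open symbols are spots not well above background. Ass1 and Cth lie higher on both miR-125a-3p arrays, at signals under 40, and Atf4 lies between 31127 and 32347 on all 4 arrays.

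Among the enzymes, Ass1, argininosuccinate synthase, joins citrulline to aspartate on the way to arginine. Its processed signal was 39.8 and 31.2 on the miR-125a-3p arrays, against 4.12 and 5.08 on the miR-neg arrays. Both miR-125a-3p spots were well above background and both miR-neg spots were not, so the fold can only be bounded approximately. With each miR-neg array raised to its lowest level well above background, Ass1 was 1.97-fold higher after the mimic. This is not a strict minimum, because an undetected probe can read above that level. On the miR-neg arrays the lowest signals well above background were 20.2 and 15.9, and an undetected probe of another gene read 22.0 and 16.7 there. The log2 levels, set relative to the 75th percentile of each array, averaged -4.33 ± 0.27 in miR-125a-3p and -7.28 ± 0.31 in miR-neg (SD, n = 2 each), a measured difference of 2.95 (SE 0.21).

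Cth, cystathionine gamma-lyase, releases cysteine from cystathionine and is the closing step of transsulfuration. Its processed signal was 18.5 and 19.5 on the miR-125a-3p arrays, against 6.72 and 5.10 on the miR-neg arrays. Again both miR-125a-3p spots were well above background and both miR-neg spots were not. By the same approximate bound Cth was 1.06-fold higher after the mimic. The bound is this small because the miR-125a-3p signals were close to the lowest signals well above background on the miR-neg arrays (20.2 and 15.9). The log2 levels of Cth averaged -5.22 ± 0.03 in miR-125a-3p and -6.93 ± 0.19 in miR-neg (SD, n = 2 each), a measured difference of 1.71 (SE 0.12).

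The spots themselves show how little light these differences rest on. The Ass1 spot had a median pixel brightness of 89.0 and 78.5 on the miR-125a-3p arrays, over a local background of 60.0 and 61.0. On the miR-neg arrays it had 50.0 and 51.0 over a local background of 58.0 and 58.0, so it was darker than its surroundings there. The Cth spot had 63.0 and 64.0 over 58.0 and 62.0 on the miR-125a-3p arrays, against 51.0 and 51.5 over 60.0 and 62.0 on the miR-neg arrays. Each gene had 1 probe with 1 spot per array. With normexp background correction of these brightness values, 50 was added to each corrected value as an offset. The log2 difference was then 0.48 for Ass1 and 0.22 for Cth, which ended the call on Cth and kept that on Ass1. For spots this dim the offset itself draws a log2 difference towards 0. These sizes are therefore not on the same footing as the measured 2.95 and 1.71.

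**Figure D2:**
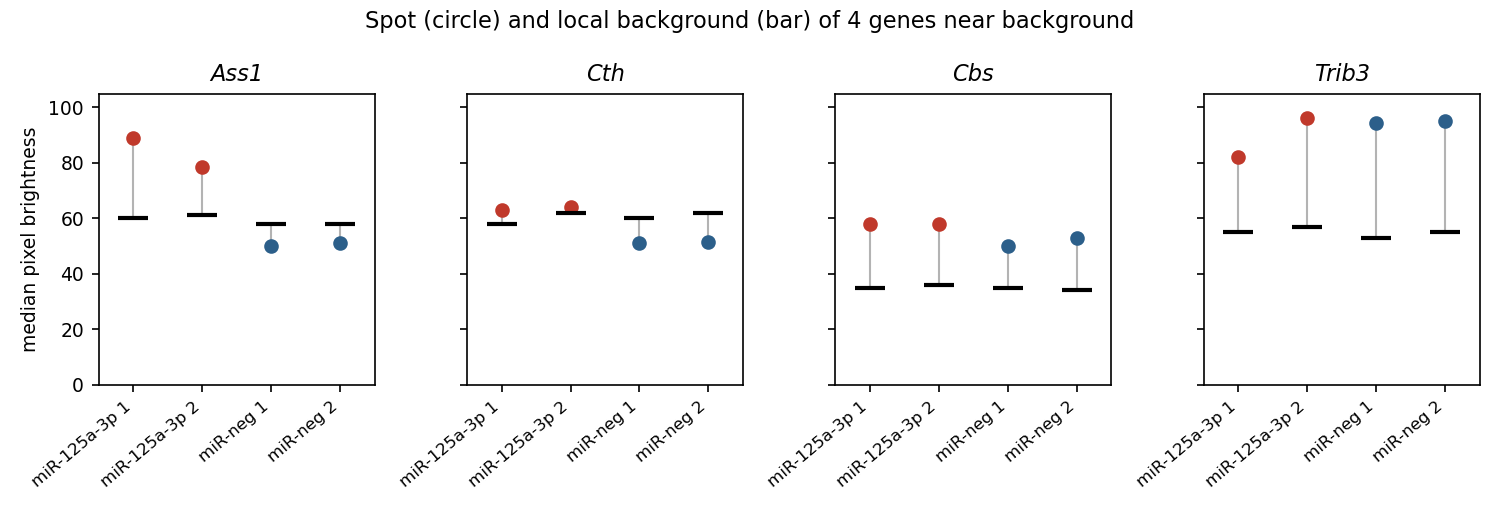
Median pixel brightness of the spot (circle, red for miR-125a-3p and blue for miR-neg) and of its local background (black bar) for Ass1, Cth, Cbs and Trib3 on each array. The Ass1 spot is 29.0 and 17.5 above its local background on the miR-125a-3p arrays and 8.0 and 7.0 below it on the miR-neg arrays.

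Ass1 and Cth entered the test only through the miR-125a-3p arrays, where their spots counted as detected. Of all features, 404 were well above background on both miR-125a-3p arrays and on neither miR-neg array, and 76 showed the opposite. The median log2 difference of the 404 was 0.74, ranging from -0.07 to 3.56, and 6.44% of them were called, against 3.95% of the 76. Entry in this way favours a higher value in miR-125a-3p, so nothing is read from the upward direction of Ass1 and Cth. Probes detected above background numbered 28123 and 26883 in miR-125a-3p, against 26313 and 26801 in miR-neg. The groups also lay at different places along 1 axis of the slide, and this placement cannot be told apart from the transfection.

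Markers of other cells were also compared between the groups. Over all features, 0.683% were called, and 12252 of 23142 lay above 0. Of 8 tested microglia and macrophage markers, 6 lay above 0 (median 1.32), 1 of 8 was called higher, and the summed signal of the 8 was 2459 and 2873 in miR-125a-3p, against 2260 and 2391 in miR-neg. The called marker was C1qa, a complement gene, with a log2 difference of 1.45 (adjusted p = 0.0377 in limma). Aif1 (1.56), Fcer1g (1.41), Tyrobp (1.36) and C1qb (1.27) lay as high and were not called, and Itgam (0.10), Cx3cr1 (-0.06) and Cd68 (-0.28) lay near or below 0. Of 9 listed endothelial, pericyte and fibroblast markers, 5 were tested, 0 of 5 were called and 4 of 5 lay above 0. The summed signal of the 5 was 607 and 722 in miR-125a-3p, against 481 and 476 in miR-neg. Among them, Col3a1 was well above background on 3 arrays and Pdgfrb on 2. Of 8 oligodendrocyte markers, 8 lay below 0 (median -0.67), 1 was called lower (Aspa, -1.55), and the summed signal was 362322 and 353919 in miR-125a-3p, against 568523 and 533777 in miR-neg. Of 7 neuronal markers, 5 lay above 0 and 0 were called, with a summed signal of 22187 and 23226 in miR-125a-3p, against 19200 and 18275 in miR-neg. Csf1r, Ptprc, Pecam1, Cldn5, Lum and Dcn were well above background on too few arrays to be tested. The part of these cells in the Ass1 and Cth signals was not tested, and in RNA from a whole culture more cells of a type and more RNA per cell cannot be told apart.

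Cbs, cystathionine beta-synthase, makes the cystathionine that Cth cleaves. Its processed signal was 22.8 and 15.8 on the miR-125a-3p arrays, against 12.9 and 14.8 on the miR-neg arrays. Of these 4 spots, 1 was well above background, on a miR-125a-3p array, which fell short of the 2 arrays the test required. The measured log2 difference was 0.46, and the arrays of the groups did not overlap, with 15.8 and 14.8 as the nearest pair. The groups also did not overlap in 52.9% of all features, and no fold is read from spots this dim. No statement on a change in Cbs was possible at this signal.

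The serine synthesis genes were far above background. Phgdh, phosphoglycerate dehydrogenase, is the entry step from glycolysis to serine. Its 10-spot probe read 40682 and 42470 on the miR-125a-3p arrays, against 48511 and 44954 on the miR-neg arrays, a log2 difference of -0.16 (SE 0.07, 95% interval -0.37 to 0.04). The arrays did not overlap, but 46.4% of all features had a larger absolute difference. The second Phgdh probe read 1388 and 1488 in miR-125a-3p, against 2019 and 1419 in miR-neg (log2 -0.23), with the wider spread in miR-neg.

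Psat1, phosphoserine aminotransferase, carries out the next step. Its brighter probe read 41920 and 43341 on the miR-125a-3p arrays, against 54944 and 50812 on the miR-neg arrays. The log2 levels averaged 5.91 ± 0.01 in miR-125a-3p and 6.21 ± 0.01 in miR-neg (SD, n = 2 each), a difference of -0.30 (SE 0.07, 95% interval -0.51 to -0.10), or 1.23-fold lower after the mimic. The second probe, with 236 and 235 in miR-125a-3p against 398 and 351 in miR-neg, lay lower as well, by 1.58-fold (log2 -0.66). Both probes thus had the miR-125a-3p arrays below both miR-neg arrays, with unequal sizes. Psat1 did not pass in the main setting. With normexp it passed just under the threshold (log2 -0.31, adjusted p = 0.049997 in limma). It also passed when limma was given a variance trend (log2 -0.30). Those 2 settings called 1612 and 2037 of all features, against 158 in the main setting. For the probe tested, 22.4% of all features had a larger absolute difference.

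Asns, asparagine synthetase, is a widely used reporter of ATF4 activity. Its processed signal was 5601 and 5492 on the miR-125a-3p arrays, against 5380 and 4822 on the miR-neg arrays. The log2 levels were 2.97 ± 0.04 in miR-125a-3p and 2.84 ± 0.02 in miR-neg (SD, n = 2 each), a difference of 0.13 (SE 0.08, 95% interval -0.08 to 0.34). Asns lay slightly higher on both miR-125a-3p arrays, within the range seen for most features, 55.1% of which had a larger absolute difference.

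Atf4 itself, measured by a probe with 10 spots per array, differed least among the 9 genes tested. It read 31127 and 32065 on the miR-125a-3p arrays, against 31675 and 32347 on the miR-neg arrays. The log2 difference was -0.01 (SE 0.09, 95% interval -0.27 to 0.24), and the arrays of the groups overlapped. ATF4 is set largely by translation, and protein was not measured here.

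Ddit3 encodes CHOP, a transcription factor raised by prolonged stress. Its processed signal was 1973 and 1917 on the miR-125a-3p arrays, against 2289 and 2485 on the miR-neg arrays, so both mimic arrays were the lower ones. The log2 difference was -0.29 (SE 0.12, 95% interval -0.61 to 0.03). Trib3, a pseudokinase that restrains ATF4 and AKT signalling, read 36.9 and 50.2 in miR-125a-3p, against 49.6 and 49.6 in miR-neg. Its difference was -0.20 (SE 0.17, 95% interval -0.66 to 0.26), and without miR-125a-3p replicate 1 it was 0.0074. On the scaled log2 levels the groups overlapped, with -4.25 and -3.84 in miR-125a-3p, against -3.91 and -3.78 in miR-neg.

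Sesn2, sestrin 2, binds leucine and restrains the growth kinase complex mTORC1. Its processed signal was 415 and 391 on the miR-125a-3p arrays, against 424 and 321 on the miR-neg arrays. The arrays overlapped, and the log2 difference was 0.13 (SE 0.13, 95% interval -0.21 to 0.48). Without miR-neg replicate 2 it was -0.0016. Across the 4 regulators Atf4, Ddit3, Trib3 and Sesn2, 3 lay below 0, 1 above, and 0 were called, against 0.683% of all features. The median absolute log2 difference of all features was 0.15, and missing the threshold does not show that these genes were equal in both groups.

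**Figure D3:**
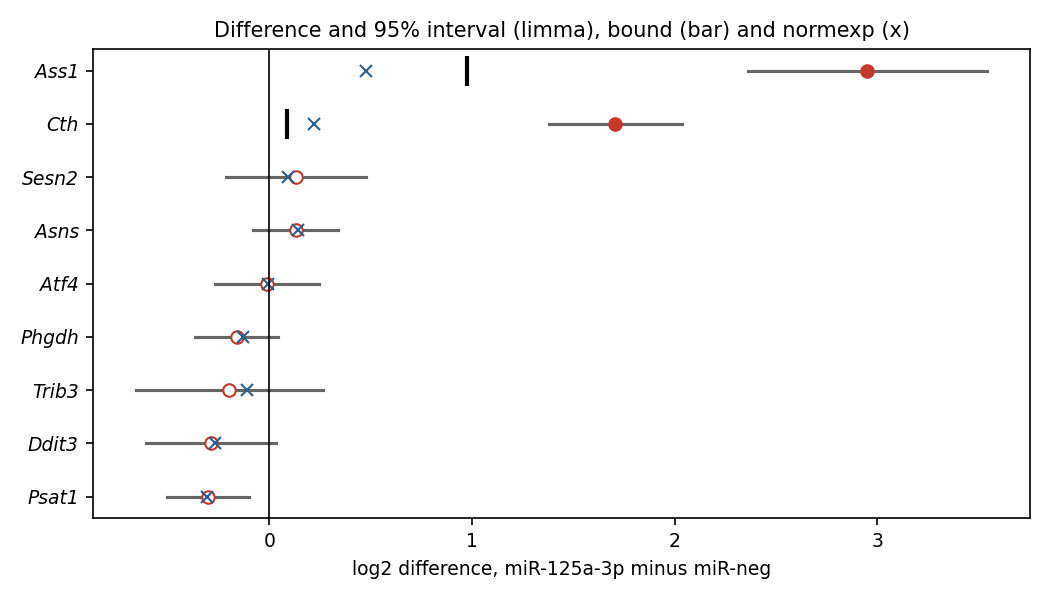
Log2 difference (miR-125a-3p minus miR-neg) with its 95% interval from limma for the 9 genes tested. Filled circles passed an adjusted p of 0.05, open circles did not, black bars are the bounds for Ass1 (log2 0.98) and Cth (0.09), and crosses are the differences with normexp (0.48 and 0.22), while the 7 other genes lie between -0.30 and 0.13.

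Promoter sequence was examined because ATF4 acts through a composite C/EBP-ATF response element in the promoters of several of these genes in mouse and human. The RefSeq windows (GRCr8, 250 bases before to 50 after the start site, 300 in all) were found for all 10 genes. They were searched on both strands for the core TGATGNAA and for the ER stress element, CCAAT and CCACG 9 bases apart. The core was in 1 of the 10 windows, that of Trib3, and in 3.98% of 33469 windows of the same length, and the ER stress element was in 0 of the 10 and 0.0657% of all. The match in Trib3 began 21 bases before the start site and lay on the reverse strand, with no ER stress element to overlap it. The windows printed are those of Trib3 (chr3:161275484-161275783, minus strand), Ass1 (chr3:35149480-35149779, plus strand) and Cth (chr2:249661017-249661316, minus strand), the gene with the match and those whose signals were higher, with the match in capitals. A match is a description of letters, and windows without one say nothing of binding elsewhere.
Trib3: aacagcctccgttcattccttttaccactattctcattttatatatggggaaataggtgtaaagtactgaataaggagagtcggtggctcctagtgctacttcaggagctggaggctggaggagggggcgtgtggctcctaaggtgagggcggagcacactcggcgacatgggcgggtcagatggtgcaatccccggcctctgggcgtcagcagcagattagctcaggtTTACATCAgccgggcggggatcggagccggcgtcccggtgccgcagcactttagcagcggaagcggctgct
Ass1: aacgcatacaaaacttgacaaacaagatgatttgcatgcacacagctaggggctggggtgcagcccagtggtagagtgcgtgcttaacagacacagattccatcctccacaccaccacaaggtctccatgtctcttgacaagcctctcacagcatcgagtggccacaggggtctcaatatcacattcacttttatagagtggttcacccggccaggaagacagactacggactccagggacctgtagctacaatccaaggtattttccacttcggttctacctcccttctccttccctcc
Cth: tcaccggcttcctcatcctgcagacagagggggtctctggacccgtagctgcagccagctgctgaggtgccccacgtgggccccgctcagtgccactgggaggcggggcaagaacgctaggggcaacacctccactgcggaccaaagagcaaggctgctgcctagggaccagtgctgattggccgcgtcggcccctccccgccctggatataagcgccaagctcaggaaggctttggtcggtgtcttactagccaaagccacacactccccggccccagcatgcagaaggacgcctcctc

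Further genes of these pathways were followed in 6 lists, 172 genes in all, which leave out the 10. The list of ATF4 target genes had 39 of 43 members tested. In limma 0 of 39 were called higher or lower, against 0.683% of all features called. Of the 39, 13 had an unadjusted p under 0.05, against 19.6% of all features. The median log2 difference of the 39 was 0.01, the same as over all features (0.01). They divided evenly, with 20 above 0 and 19 below. The smallest p-values belonged to Gadd45a, a growth arrest gene (-0.49, adjusted p = 0.0905), Nupr1, a stress-induced chromatin protein gene (0.45, adjusted p = 0.098), and Atf3, a stress-induced transcription factor gene (-0.71, adjusted p = 0.1). Gadd45a read 3795 and 4091 in miR-125a-3p, against 5776 and 5359 in miR-neg, and Atf3 read 370 and 320 in miR-125a-3p, against 561 and 569 in miR-neg. The arrays of the groups did not overlap for either gene. They also did not overlap for 25 of the 39 genes tested and for 52.9% of all features.

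Of the eIF2 kinases and amino acid sensing genes, 23 of 27 were tested and 0 of 23 were called. In limma 3 had an unadjusted p under 0.05, and the median was -0.03. For this list and the next, the shares over all features were 0.683% called and 19.6% at an unadjusted p under 0.05. Eif2ak3, which encodes the ER stress kinase PERK, read 750 and 751 in miR-125a-3p, against 1003 and 948 in miR-neg (log2 -0.37, adjusted p = 0.123 in limma). Castor2, of the family of cytosolic arginine sensors, was at 0.31 (adjusted p = 0.2), and Mtor, the kinase of mTORC1, was at 0.44 (adjusted p = 0.243). Of the ER chaperone and ERAD genes, 22 of 24 were tested, 0 of 22 were called, 3 had an unadjusted p under 0.05, and the median was -0.02. Canx, the lectin chaperone calnexin, was at 0.50 (adjusted p = 0.095), while Calr, its soluble relative calreticulin, was at -0.26 (adjusted p = 0.221) and Sel1l, an adaptor of the ERAD ligase, was at -0.27 (adjusted p = 0.24).

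In serine, glycine and one-carbon metabolism, 17 of 22 genes were tested, 1 was called higher, 0 lower, and the median was 0.04. Of all 23142 features, 0.683% were called, 0.376% as higher and 0.307% as lower, and 12252 lay above 0. Aldh1l1, cytosolic 10-formyltetrahydrofolate dehydrogenase, read 212 and 241 in miR-125a-3p, against 65.2 and 56.9 in miR-neg. It rose by 1.90 on the log2 scale (SE 0.09, adjusted p = 0.0342 in limma, n = 2 per group), and both miR-125a-3p arrays lay above both miR-neg arrays. With normexp the log2 difference of Aldh1l1 was 1.15. With any 1 array left out, 0 genes of this list were called in limma, and 3 to 6 had an unadjusted p under 0.05. Sdsl, a serine dehydratase-like gene, read 2397 and 2500 in miR-125a-3p, against 4305 and 4062 in miR-neg (log2 -0.77, adjusted p = 0.0536), just short of the threshold. Amt, of the glycine cleavage system, was at 0.46 (adjusted p = 0.192 in limma). Aldh1l1 is also an astrocyte marker, and of 9 other astrocyte markers 8 lay above 0, 0 were called, and the summed signal was 145353 and 150507 in miR-125a-3p, against 137464 and 133379 in miR-neg. Gfap (0.66), Aqp4 (1.53) and Gja1 (1.26) lay highest among them, and their part in the Aldh1l1 value was not tested.

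Among methionine cycle, cysteine and glutathione genes, 21 of 27 were tested and 0 of 21 were called in limma. Of these, 5 had an unadjusted p under 0.05 and 15 lay above 0, with a median of 0.11. Over all features, 0.683% were called, 19.6% had an unadjusted p under 0.05, and 12252 of 23142 lay above 0. The 3 genes of the list with the smallest p-values all lay above 0. Tst, thiosulfate sulfurtransferase of sulfide oxidation, read 804 and 871 in miR-125a-3p, against 594 and 489 in miR-neg (log2 0.64, adjusted p = 0.0814 in limma). Sqor, sulfide quinone oxidoreductase of the same pathway, was at 0.44 (adjusted p = 0.115), and Mtr, methionine synthase, at 0.55 (adjusted p = 0.132). Mtr was dim, at 37.1 and 38.2 in miR-125a-3p, against 24.7 and 27.0 in miR-neg. With normexp and its offset of 50 the log2 difference of Mtr was 0.12.

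Among arginine, urea cycle and asparagine genes, 22 of 29 were tested and 0 of 22 were called, against 0.683% of all features. In limma 4 had an unadjusted p under 0.05, against 19.6% of all features, and the median was 0.07. Nos3, endothelial nitric oxide synthase, was not well above background in miR-neg. It read 24.4 and 23.6 in miR-125a-3p, against 17.7 and 14.6 in miR-neg. By the approximate bound, which is not a strict minimum, it was 1.34-fold higher. The measured log2 difference was 0.58 (adjusted p = 0.0918 in limma). Nos3 also entered the test only through the miR-125a-3p arrays. With normexp, whose offset of 50 draws dim spots towards 0, the log2 difference of Nos3 was 0.07. Azin2, an antizyme inhibitor of polyamine metabolism, was at 0.53 (adjusted p = 0.117), and Glul, glutamine synthetase, at -0.46 (adjusted p = 0.118). Asl, which cleaves the product of Ass1 to arginine, was at 0.13 (adjusted p = 0.415) and was named after its value was seen.

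**Figure D4:**
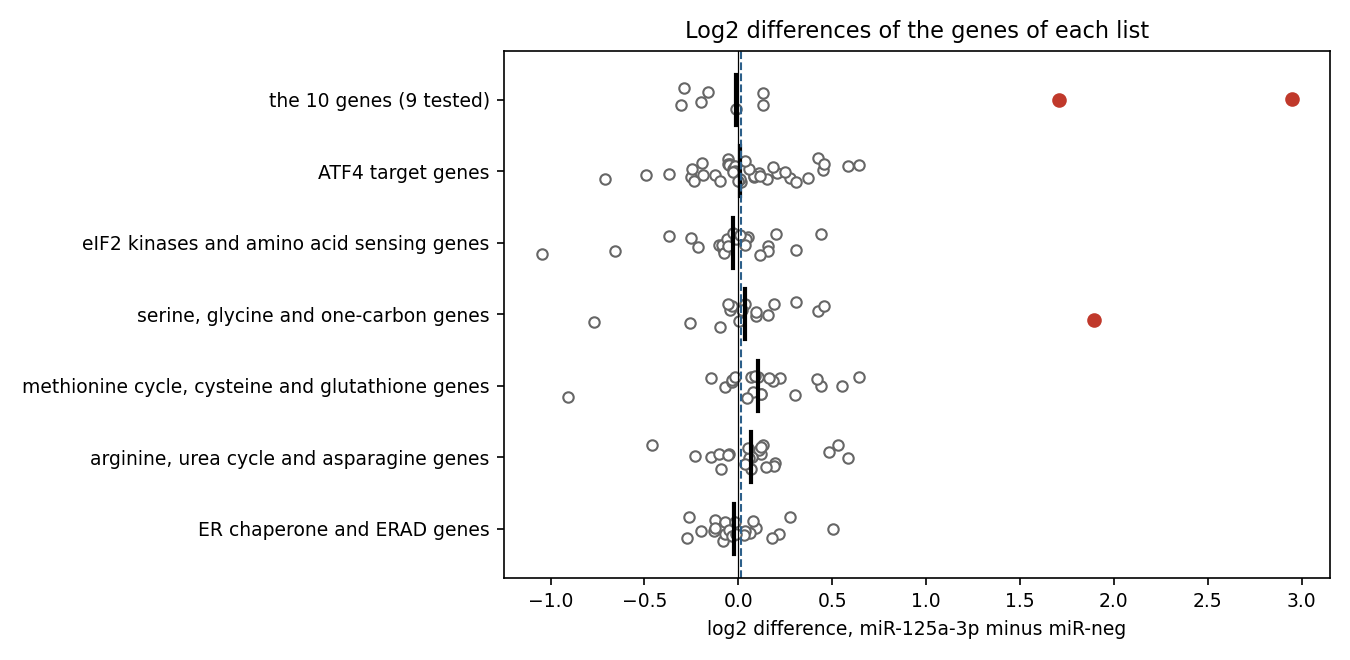
Log2 difference (miR-125a-3p minus miR-neg) of each tested gene in the 10-gene group and in the 6 lists. Filled circles passed an adjusted p of 0.05, black bars are list medians and the dashed line is the median of all 23142 features (0.01). Every list median lies between -0.03 and 0.11, and Ass1 (2.95), Cth (1.71) and Aldh1l1 (1.90) are the filled circles.

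The genes whose pattern over the 4 arrays lay nearest to Ass1 were Tnfaip2, Cyp1a1 and Tpm2, at Euclidean distances of 0.46, 0.62 and 0.63 between centred log2 levels, out of 11660 genes. Nearest to Cth were Bdh2, C1s and Pla2g7, at 0.02, 0.09 and 0.20. All 6 were higher in miR-125a-3p, with log2 differences from 1.68 to 3.00. Of these 6, Pla2g7 was well above background on all 4 arrays and the other 5 on the 2 miR-125a-3p arrays only, the pattern that Ass1 and Cth showed. With 4 arrays in 2 groups, this likeness is mostly the shared size of the difference.

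**Figure D5:**
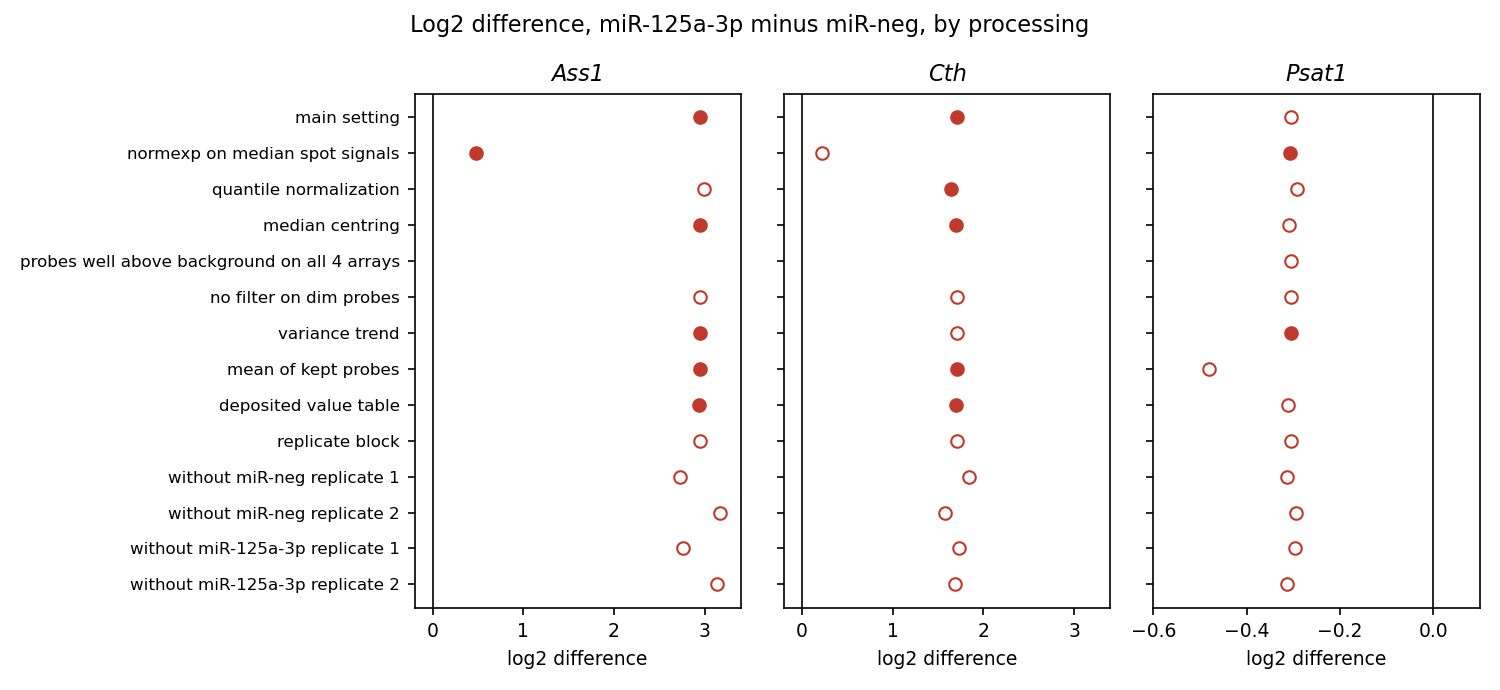
Log2 difference (miR-125a-3p minus miR-neg) of Ass1, Cth and Psat1 under the main setting and each alternative, with filled circles where the adjusted p was under 0.05. No circle is drawn for Ass1 and Cth on probes well above background on all 4 arrays, where neither could be measured. Ass1 lies at 0.48 and Cth at 0.22 with normexp, while Psat1 lies between -0.48 and -0.29.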

How the data were processed

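RNA of 4 samples was measured on 4 single-colour Agilent arrays of 1 slide and 1 scan. Spot intensities came from Agilent Feature Extraction 10.7.3.1 per the submitters' processing notes, background-subtracted and detrended per the file headers. The deposited value table holds log2 values. For all 45533 probes compared, each column differed from its array's log2 intensity by a single constant (tolerance 0.01), and its 75th percentile was near 0, so scale and direction were settled and it served as an alternative. Flags of 0 or 1 per spot, as deposited, marked spots well above background.

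From the scanner values, control and outlier spots were left out, spots of a probe were averaged as log2, and the 75th percentile of each array was subtracted. Probes well above background on at least 2 arrays (27235) were kept, and the probe with the highest mean stood for its gene. RefSeq accessions gave 46.3% of probes a symbol through a GRCr8 table. The array design names the rn4 build. The comparison used two-sided limma tests (version 3.58.1, R 4.3.3), adjusted by Benjamini-Hochberg over 23142 features. The script was tested on simulated data. An exact permutation test of 2 against 2 cannot go below 0.333. The number of arrays limits the precision. Where both arrays of a group left a probe undetected, that group has only an approximate bound. It sets the mean of the bright group against, per array, the higher of the probe's own level and the lowest level well above background. An undetected probe can lie above that lowest level, so the bound is not a strict minimum.

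The members and the lists were chosen with earlier results of these data known. The text names all members, called genes of each list (up to 6) and up to 3 further genes per list by smallest p, and the 3 genes nearest to Ass1 and to Cth. A gene that this rule names is not reported here.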

Additional observations from a re-analysis of the deposited data

How the results depend on the processing

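The count of 158 features (87 higher, 71 lower) was 83 with quantile normalization, 599 on probes well above background on all 4 arrays, 0 without a filter on dim probes (3963 at an unadjusted p under 0.05 in limma), 2037 with a variance trend, 989 at a threshold of 0.1 and 1612 with normexp on median spot signals, an alternative chosen after seeing the files, which hold no mean spot signal. With the replicate number as a block, which equals a block on the slide axis shared by the groups, the count was 0 (3950 at an unadjusted p under 0.05 in limma), as were the counts for the members and for one-carbon genes. The deviations of arrays that share a number correlated at 0.0504 across features, which with 2 arrays per group cannot show a pairing. Leaving out 1 array gave counts from 0 to 0 (2768 to 4118 at an unadjusted p under 0.05 in limma), with the lone array assumed to vary like the other group, and from 0 to 0 for the members (main 2) and for one-carbon genes (main 1).

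The 2 calls among the members became 1 with quantile normalization, which ended that on Ass1, and 0 without the filter or on probes above background on all 4 arrays, where Ass1 and Cth were not measured. Normexp and a variance trend each ended the call on Cth and called Psat1. Among the lists, one-carbon genes (1 called) had 3 with normexp, 2 on probes above background on all 4 arrays, 0 without the filter, 4 with a variance trend and 2 at a threshold of 0.1. ATF4 target genes (0 called) had 4 with normexp, 8 with a variance trend and 2 at 0.1. Methionine, cysteine and glutathione genes (0) had 3, 4 and 1, and 1 where all 4 arrays had to detect the probe. ER chaperone genes (0) had 1, 2 and 1, arginine genes (0) had 1, 1 and 1, and eIF2 kinase and sensing genes (0) had 1 with normexp and 1 with a variance trend. With 1 array left out, Atf4 ranged from -0.0945 to 0.0687 and Sesn2 from -0.0016 to 0.27, both turning sign without miR-neg replicate 2, and Trib3 ranged from -0.40 to 0.0074, turning without miR-125a-3p replicate 1. Apart from normexp, the difference of Ass1 stayed between 2.73 and 3.17 and that of Cth between 1.57 and 1.84. The causes of these shifts were not tested. The planned normexp on mean spot signals was not run.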
